A study of Panicum virgatum with 8 samples.

Results

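miR393 and miR394 are conserved plant microRNA families whose best known targets are mRNAs of F-box proteins, the subunits that choose the substrates of ubiquitin ligases. They were examined in the small RNA data of switchgrass (Panicum virgatum AP13), a tetraploid grass whose chromosomes come as K and N copies. Members were chosen by name, as predicted hairpin loci whose more abundant arm carries a miRBase name of either family, and they came to 6 of the 210 loci in the table, 4 of miR393 and 2 of miR394. Each family is represented by 1 miRNA sequence, ppe-miR393b and ata-miR394-5p, named after the miRBase entries of peach (Prunus persica) and Aegilops tauschii that they match. All plants were of the line AP13, grown in a greenhouse at an average of 26 °C by day and 20 °C by night. The 8 libraries were a cold control, cold (4 °C for 24 h), a drought control, drought (11 days without water), re-watering after drought (sampled on day 12), leaf, stem and panicle. Stress was applied 2 months after the plants were raised from cuttings. For the stress libraries and their controls the labels give the tissue as above-ground tissue, whereas the design text names upper leaf blades. The table gives 1 abundance per sequence and names no library, so each value is taken here as pooled over the 8 conditions, with no replicate and no condition to compare.

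A plant microRNA is cut from one arm of a hairpin precursor together with its partner on the other arm, the miRNA*. The miRNA is then loaded into an ARGONAUTE protein and directs the slicing of mRNAs to which it is nearly complementary. miR393 targets the mRNAs of TIR1 and the related AFB proteins, F-box proteins that act as auxin receptors, and is known for tuning auxin responses during growth and stress. miR394 targets the mRNA of LCR (LEAF CURLING RESPONSIVENESS), an F-box protein known in Arabidopsis for its role in leaf shape and in the shoot meristem. The study also followed both families and their TIR1 and LCR targets during cold in Brachypodium, and for miR394 it examined the cut LCR mRNA in switchgrass. Those measurements were not analysed here.

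The miRNA sequences are shown because both families are defined by them. They are written with T for U, as deposited, and capitals mark the seed (bases 2 to 8 from the 5′ end).
ppe-miR393b: tCCAAAGGgatcgcattgatc
ata-miR394-5p: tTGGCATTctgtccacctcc
The first is 21 nt long with a GC content of 47.6%, and the second is 20 nt long with a GC content of 55%. Both start with U, as did 49 of the 59 distinct miRNA sequences in the table (83.1%), and 21 nt was the length of 46 of these sequences against 7 of 20 nt. No other of the 205 sequences compared, miRNA* included, shared the seed of either miRNA. The nearest other sequence was 9 edits (substitutions, insertions or deletions) away from ppe-miR393b and 8 edits away from ata-miR394-5p, so no variant shifted or changed by a few bases was listed for either family. The 2 miRNAs are unrelated to each other in sequence, at 14 edits apart. Both are identical, letter for letter, to the Brachypodium sequences in the target list of the study, ppe-miR393b to miR393a and miR393b-5p, and ata-miR394-5p to miR394.

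Both miRNAs were of middle abundance. ata-miR394-5p was listed at 337 and ppe-miR393b at 308, in a unit that the table does not state, which placed them at ranks 25 and 26 of the 59 miRNA sequences. The median sequence was at 120, so miR394 lay 2.81-fold and miR393 2.57-fold above it. The most abundant sequence, ata-miR166d-3p of the miR166 family, was at 185355, which is 550-fold above miR394 and 602-fold above miR393. miR394 made up 0.12% of the summed abundance and miR393 0.11%. Directly above them were ata-miR396e-5p at 476 and mdm-miR171b at 404, and directly below were sbi-miR156e at 297 and mes-miR399f at 123. The 2 members differed by 29 abundance units, a ratio of 1.09. Without replicates, whether neighbors in this order differ beyond their spread is not known. The abundance is listed per sequence, so all 4 miR393 loci carry the same 308 and both miR394 loci the same 337, and how much each locus produced was not measured.

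**Figure D1:**
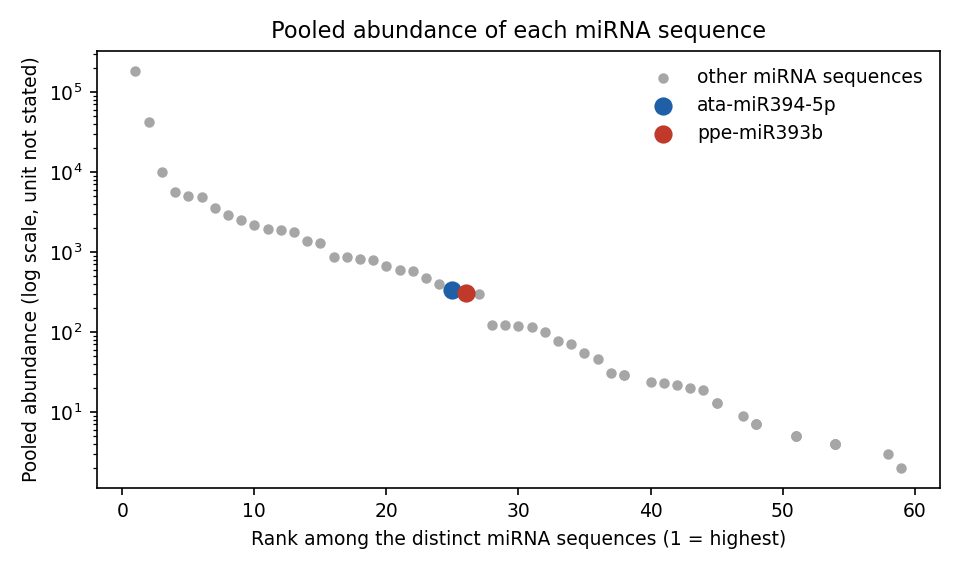
Pooled abundance (log scale, unit not stated) of each of the 59 distinct miRNA sequences, ordered by rank, with 1 point per sequence and no error bars because the values are pooled. ata-miR394-5p at 337 (blue) and ppe-miR393b at 308 (red) sit side by side near the middle, between a maximum of 185355 and a minimum of 2.

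The loci of both families came in matched K and N copies, 1 pair for miR394 and 2 pairs for miR393, and in every one the miRNA lay on the 5′ arm. In coordinates of genome version 4.1, miR394 was predicted at Chr01K:69057908-69058021 and Chr01N:80821237-80821349, both on the plus strand. One miR393 pair lay at Chr05K:10835694-10835810 and Chr05N:10417762-10417877 on the plus strand, and the other at Chr07K:73316045-73316173 and Chr07N:70042956-70043106 on the minus strand. The genes around these positions were not analysed here. For comparison, the median over the 59 sequences was 2 loci per sequence, and 16 sequences had more than the 4 of miR393. The authors called all 6 loci miRNA candidates, the verdict given to 162 of the 210 loci (77.1%). The final set of conserved switchgrass miRNAs in the paper holds fewer sequences and precursors than are listed here. Whether the 6 loci are in that set is not given here.

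The miRNA* sequences are shown because they differ between the 2 chromosome pairs of miR393 and between the K and N copies of miR394. Capitals mark bases without a partner when the miRNA* is paired with its miRNA by RNAduplex, a program that finds the most stable pairing of 2 strands.
miR393 miRNA*, Chr07K and Chr07N: tcagtgcAatccctttggaAT
miR393 miRNA*, Chr05K and Chr05N: tcatgcgatccttttggaGG
miR394 miRNA*, Chr01K: aggtgggcaTTCtgccaaTGG
miR394 miRNA*, Chr01N: aggtgggcaTACtgccaaTGG
The K and N copies of each miR393 pair had the same miRNA*, while the miRNA* of chromosome 7 and of chromosome 5 were 5 edits apart. The chromosome 7 miRNA* is identical to bdi-miR393b-3p, the Brachypodium miR393b-3p. For miR394, the miRNA* of the K and N copies differed by T11A (the K base, the position from the 5′ end of the miRNA*, then the N base).

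The same miRNA strand was thus paired in 2 ways in miR393 and in 1 way in miR394. With the chromosome 7 miRNA*, ppe-miR393b formed 18 pairs at -28.9 kcal/mol, interrupted by a single mismatch at position 12 of the miRNA, opposite position 8 of the miRNA*. With the chromosome 5 miRNA* it formed 18 pairs at -27.5 kcal/mol, with the base at position 16 of the miRNA bulged out and no unpaired base inside the miRNA*. Both miR393 duplexes left 2 nt unpaired at each 3′ end, the overhang typical of DICER-LIKE products, as did 73 of the 133 distinct duplexes in the table (54.9%). Of the member miRNA*, only that of chromosome 7 was listed above 0. The overhangs of the other member duplexes thus have no listed miRNA* abundance behind them. ata-miR394-5p formed 15 pairs at -23.1 kcal/mol, with an internal loop of positions 7 to 9 of the miRNA against positions 10 to 12 of the miRNA*, and its overhangs were 2 nt on the miRNA and 3 nt on the miRNA*. The T11A difference between the K and N copies lay inside this loop, and the duplex energy was the same for both. The miR393 duplexes lay close to the median duplex at -27.6 kcal/mol and 17 pairs, whereas 106 of the 133 duplexes were more stable than those of miR394.

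The deposited structure columns gave the same order. Each miR393 locus had 2 mismatch positions, a number that 81 of the 210 loci did not exceed (38.6%), and the 2 loci on chromosome 5 had 1 nt of these in an asymmetric bulge while those on chromosome 7 had none. Both miR394 loci had 4 mismatch positions with 1 nt in an asymmetric bulge and 3 mismatches in a row, and 171 of the 210 loci had at most 4 (81.4%). The median over all loci was 3. These counts come from the folded hairpin and can exceed the unpaired bases inside the RNAduplex pairing. All 6 loci were within the limits that the methods set on miRNA length, precursor length, mismatch positions and asymmetric bulges. The limits on abundance, genome hits, strand bias and abundance bias were not applied here.

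The miRNA* of miR393 was listed at a large share of the abundance of its miRNA. bdi-miR393b-3p was listed at 114 against 308 for ppe-miR393b, a ratio of 2.7, so the miRNA* made up 27% of both arms together. The median ratio was 23 over the 29 sequences with a miRNA* at 1 or more, and only ata-miR169d-5p, with 5 on each arm, had a lower ratio than miR393. Among the 14 sequences with a miRNA* of at least 10, a limit set after the data were seen, the miR393 ratio was the lowest, followed by ata-miR528-5p (77 against 17, a ratio of 4.53) and ata-miR172b-3p (873 against 158, a ratio of 5.53). At 114, bdi-miR393b-3p ranked 4 of the 44 distinct miRNA* sequences listed at 1 or more, whose median was 7. It starts with U, which held for only 2 of these 44 (4.55%). All 44 have a miRBase name, because no unnamed miRNA* was listed above 0. The chromosome 5 miRNA* of miR393 also starts with U but is unnamed and not among them. The ratios are of pooled values without an error. The miRNA is shared by all 4 loci and bdi-miR393b-3p by the chromosome 7 pair alone, and therefore no ratio could be given for one hairpin alone.

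**Figure D2:**
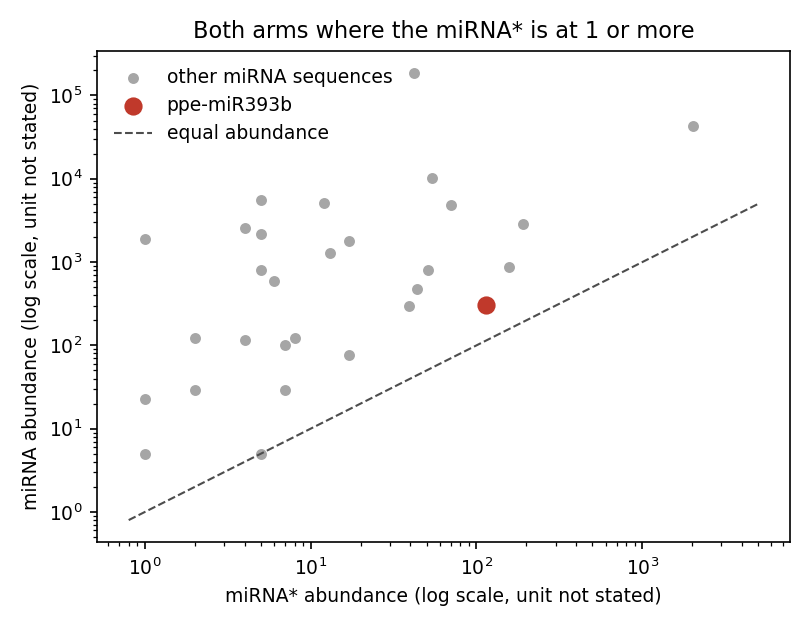
Abundance of the miRNA against that of its most abundant miRNA* (both log scale, unit not stated) for the 29 sequences with a miRNA* at 1 or more, with 1 point per sequence and a dashed line where both arms are equal. ppe-miR393b, at 308 against 114, lies closer to the line than all points except ata-miR169d-5p on it, and miR394 is not plotted because its miRNA* is listed at 0.

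The miRNA* was listed at 0 at the chromosome 5 pair of miR393 and at both miR394 loci. This 0 goes with the lack of a miRBase name for the miRNA*: all 194 structures with an unnamed miRNA* had the value 0, and all 300 with a named one had at least 1. A miRNA* had a name at 2 of the 6 member loci and at 92 of all 210 (43.8%). The 0 at the other 4 members does not show that the strand was absent.

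Hairpins of miR394 were shorter than those of most loci and, as whole hairpins, less stable, and those of miR393 spanned a wider range. The miR394 hairpins were 93 nt on the K copy and 88 nt on the N copy, with predicted free energies of -48.0 and -51.1 kcal/mol. Of the 210 loci, 194 and 190 had a lower energy, and the median was -68.8 kcal/mol at a median length of 123.5 nt. The miR393 hairpins had -60.1 kcal/mol over 113 nt on Chr05K, -61.2 kcal/mol over 112 nt on Chr05N, -66.4 kcal/mol over 112 nt on Chr07K and -77.5 kcal/mol over 134 nt on Chr07N. Of these, only Chr07N, the longest, was below the median energy of all loci when length was not taken into account. Per nucleotide the 6 members lay closer together, from -0.52 kcal/mol per nt on Chr01K to -0.59 kcal/mol per nt on Chr07K, on either side of the median of -0.54 kcal/mol per nt. Chr01K and Chr05K were above this median, and Chr01N, Chr05N, Chr07K and Chr07N were below it. For miR394, 120 of the 210 loci were lower per nucleotide than Chr01K, and 57 were lower than Chr01N at -0.58 kcal/mol per nt. A second structure was listed for 5 of the 6 loci, between 0.672 and 1.3 kcal/mol less stable than the first.

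**Figure D3:**
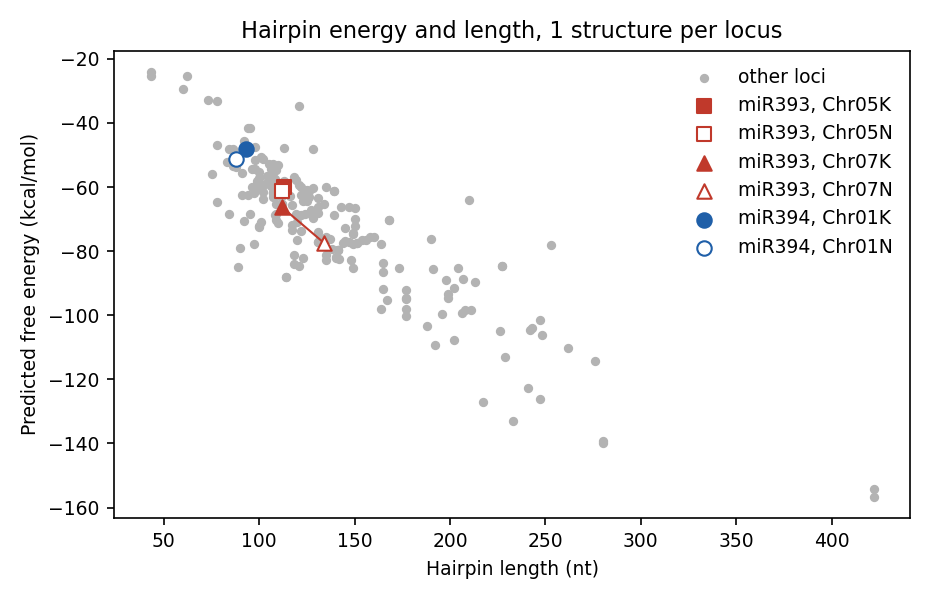
Predicted free energy of the hairpin in kcal/mol against its length in nt for 1 structure at each of the 210 loci, with miR393 in red, miR394 in blue, filled symbols for K copies, open symbols for N copies and lines joining the copies of a pair. The miR394 pair (88 and 93 nt, -51.1 and -48.0 kcal/mol) lies toward the short end, and the miR393 pair of chromosome 7 spans -66.4 to -77.5 kcal/mol.

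The N copy had the lower hairpin energy in all 3 member pairs, by very different amounts, but on chromosome 7 not per nucleotide. The difference, K minus N, was 1.08 kcal/mol for miR393 on chromosome 5, 3.12 kcal/mol for miR394 on chromosome 1 and 11.1 kcal/mol for miR393 on chromosome 7. Over all 45 matched pairs of the table (1 locus of a miRNA on each copy of a chromosome), the N copy was lower in 25 (55.6%), the median size of the difference was 3.53 kcal/mol and the range was -19.2 to 19.7 kcal/mol. By size, the chromosome 7 pair of miR393 ranked 10 of 45, the miR394 pair 25 and the chromosome 5 pair 37. The chromosome 7 copies share the miRNA and the miRNA*, and their difference in length lies in the stretch between them, which was 37 nt on the K copy and 59 nt on the N copy. The precursors, 129 nt and 151 nt long, differ by the same 22 nt. In the other pairs the stretch was 1 nt shorter on the N copy, at 57 and 56 nt for miR393 on chromosome 5 and at 45 and 44 nt for miR394. Per nucleotide the N copy was also lower on chromosomes 1 and 5. On chromosome 7 the order was reversed, at -0.5925 kcal/mol per nt on the K copy and -0.5783 kcal/mol per nt on the N copy. The energies are predictions for a sequence and have no measurement error.

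**Figure D4:**
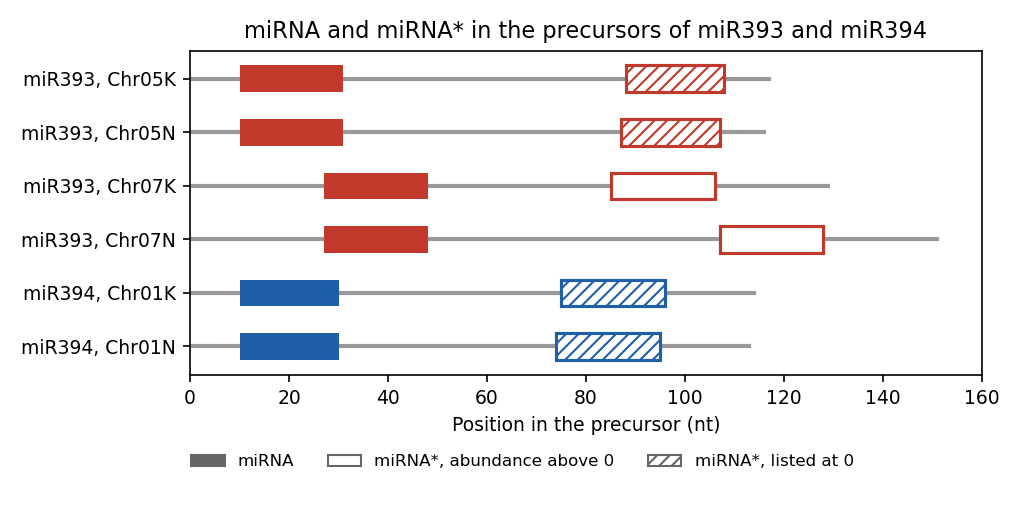
Precursors of the 6 loci drawn to scale in nt, with positions as deposited, the miRNA as a filled box and the miRNA* as an open box (hatched where listed at 0), miR393 in red and miR394 in blue. The 2 arms are 37 nt apart on Chr07K and 59 nt apart on Chr07N, against 56 and 57 nt for miR393 on chromosome 5 and 44 and 45 nt for miR394.

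**Figure D5:**
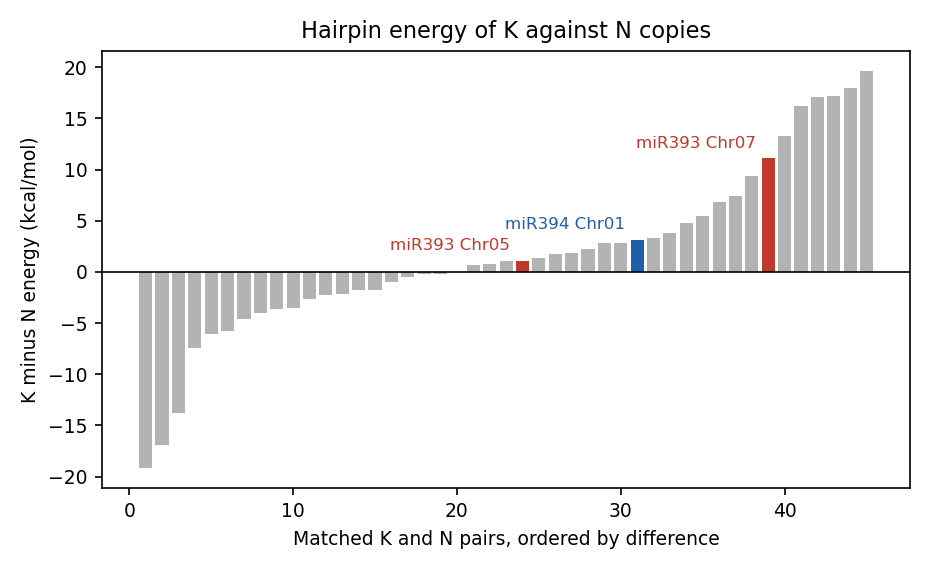
Difference in predicted hairpin energy, K minus N in kcal/mol, for each of the 45 matched pairs, ordered by value. There is 1 bar per pair, positive where the N copy has the lower energy, with no correction for hairpin length. The 3 member pairs (red and blue) are all positive, at 1.08, 3.12 and 11.1 kcal/mol.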

How the data were processed

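Small RNA libraries from 8 switchgrass conditions, 1 in each, were processed by the authors as one set. Per the methods of the study, trimmed reads were mapped with Bowtie (0.12.7 in the submitters' processing notes) to version 4.1 of the Panicum virgatum genome, sequences matching miRBase 21 were evaluated with modified miREAP, and precursors were folded with UNAFold. The table deposited by the authors lists abundances, treated here as a score because their unit is not stated, and predicted energies. Pooling is inferred, the depth per library is not in the table, and no value has a replicate error.

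Structures whose miRNA abundance was at least that of the miRNA* were kept. Each locus was counted once, by its more abundant arm (the first listed if equal) and its most stable structure, with preference for those within the structural limits of the methods (miRNA of 20 to 24 nt, precursor under 300 nt, at most 5 mismatch positions, at most 3 nt in asymmetric bulges). The sequences to be named were the members with their miRNA*, any sequence sharing bases 2 to 8, their neighbors in abundance and the most abundant sequence. The other sequences in the comparison of both arms were named after their values were seen. Members and rules were chosen with earlier results of these data known. Duplexes were computed with RNAduplex of ViennaRNA 2.7.2, in Python 3.11.15. The selection of loci was tested on simulated data, and the duplex pairing on a perfectly complementary duplex only. The matching of K and N copies was not tested on simulated data. No significance test was run, and target sites were not analysed here.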

Additional observations from a re-analysis of the deposited data

How the results depend on the processing

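No paired analysis of conditions was possible, because the values name no library and there was only 1 library in each condition. Of 32 values recomputed, 16 were the same, 16 moved and 0 changed sign. Only the K minus N differences could have changed sign, since counts, ranks, ratios and medians of negative energies cannot. Differences in energy per nucleotide were not among the recomputed values. The counts of 4 miR393 loci and 2 miR394 loci were the same within the structural limits of the methods, without scaffolds, with overlapping loci merged and with the family read from any word of the name. A miRNA* abundance of at least 1, or of at least 10, left 2 loci of miR393 and 0 of miR394, since an unnamed miRNA* is listed at 0. A limit of 2 mismatch positions left 4 loci of miR393 and 0 of miR394. The median hairpin energy was -63.8 kcal/mol for miR393, -63.5 kcal/mol with the mean over the listed structures and -71.9 kcal/mol for the 2 loci with a miRNA* of at least 1, and for miR394 it was -49.6 kcal/mol and -49.2 kcal/mol with the mean. With that mean, the K minus N difference was 1.13 kcal/mol for miR393 on chromosome 5, 10.5 kcal/mol for miR393 on chromosome 7 and 3.06 kcal/mol for miR394. The ranks of miR394 and miR393 were 24 and 25 among the 55 sequences within the structural limits, and 32 and 33 among 113 sequences of both arms. Among the 29 sequences with a miRNA* of at least 1, miR393 ranked 18, and miR394 is not in that set. The miR393 ratio of 2.7 rests on its only miRNA* listed above 0, so its recomputed values could only be the same.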
